A study of Mus musculus with 12 samples.

Results

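Chemokines are small secreted proteins that direct the migration of leukocytes, and 10 chemokine genes of mouse peritoneal macrophages were followed across 12 RNA-seq libraries: Cxcl12, Cxcl13, Cxcl1, Cxcl2, Ccl2, Ccl7, Ccl3, Ccl4, Ccl6 and Ccl24. The members were the rows of the count table whose Ensembl identifiers carry these symbols, and all 10 were found among its 57010 genes. All 10 also passed the filter on low counts that left 15943 genes for testing. Large peritoneal macrophages are long-lived resident cells of the cavity, and they were sorted here by high F4/80 and low MHC class II staining. Wild-type (WT) mice and mice without the scavenger receptor Tim4 (Tim4KO) were sampled naive or 24 h after an intraperitoneal injection of ID8ZGO, a derivative of the mouse ovarian tumour line ID8 that carries ZsGreen and ovalbumin. Each of the 4 resulting groups (naive WT and Tim4KO mice, named WT naive and Tim4KO naive, and injected mice, named WT ID8 and Tim4KO ID8) had 3 libraries. All mice were female, and those injected were 8 weeks old. The labels do not state the age of the naive mice, how the Tim4KO allele was made, or whether libraries of a group came from separate animals, so the p-values below measure only the spread between these libraries. Only ZsGreen-positive macrophages were sorted from injected mice and no such gate was used for naive mice, so challenge and tumour uptake cannot be told apart.

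Chemokines act through G protein-coupled receptors on the cells they attract. CXCL12 binds CXCR4 and retains leukocytes in tissues, and CXCL13, the ligand of CXCR5, draws B cells and in the peritoneum is known for bringing B-1 cells into the cavity and the omentum. CXCL1 and CXCL2 recruit neutrophils through CXCR2, CCL2 and CCL7 recruit monocytes through CCR2, and CCL3 and CCL4, the macrophage inflammatory proteins, attract monocytes and T cells. CCL6 acts on CCR1, and CCL24, also called eotaxin-2, attracts eosinophils through CCR3. Many inflammatory chemokine genes are known targets of NF-kB.

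Promoter sequences were read for the members that had an entry in the RefSeq table of the GRCm38.p6 build, which were 6 of the 10: Cxcl12, Cxcl13, Cxcl1, Cxcl2, Ccl3 and Ccl6. The 250 bases upstream of the start are printed for the neutrophil-recruiting pair Cxcl1 and Cxcl2, and for Cxcl12 and Ccl6, which changed with challenge in both genotypes. Capitals mark matches to the NF-kB consensus. Each is given 5′ to 3′ on the strand of its gene.
Cxcl1 (chr5:90890995-90891244, plus strand): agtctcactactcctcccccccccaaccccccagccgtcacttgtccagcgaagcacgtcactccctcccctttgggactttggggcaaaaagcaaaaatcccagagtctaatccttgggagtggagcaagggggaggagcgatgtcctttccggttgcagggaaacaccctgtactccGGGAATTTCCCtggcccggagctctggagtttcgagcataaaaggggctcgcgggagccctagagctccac
Cxcl2 (chr5:90903649-90903898, plus strand): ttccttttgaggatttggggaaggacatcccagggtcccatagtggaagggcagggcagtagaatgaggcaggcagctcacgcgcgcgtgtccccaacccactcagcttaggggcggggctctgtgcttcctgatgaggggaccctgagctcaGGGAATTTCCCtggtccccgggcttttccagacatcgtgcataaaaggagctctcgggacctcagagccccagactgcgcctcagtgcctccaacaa
Cxcl12 (chr6:117168285-117168534, plus strand): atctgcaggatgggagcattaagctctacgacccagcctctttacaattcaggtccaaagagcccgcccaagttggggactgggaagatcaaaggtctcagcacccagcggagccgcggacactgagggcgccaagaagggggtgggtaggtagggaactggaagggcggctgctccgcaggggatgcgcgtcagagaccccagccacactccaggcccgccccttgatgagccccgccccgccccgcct
Ccl6 (chr11:83593088-83593337, minus strand): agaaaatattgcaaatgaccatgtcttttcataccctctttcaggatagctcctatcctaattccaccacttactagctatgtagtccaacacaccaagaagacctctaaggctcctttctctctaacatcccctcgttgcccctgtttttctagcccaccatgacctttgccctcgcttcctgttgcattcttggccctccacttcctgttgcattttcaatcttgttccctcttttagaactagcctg
Cxcl1 and Cxcl2 carried the same 11 bases, GGGAATTTCCC, which match the NF-kB consensus on both strands, 1 base apart. Counted from the RefSeq start, with -1 as the base before it, they lie at -71 to -61 in Cxcl1 and at -97 to -87 in Cxcl2. Of 32536 mouse promoter windows of this length, 7.28% held an NF-kB match on either strand. The other motifs searched on both strands were AP-1 (TGANTCA, in 6.73% of windows), C/EBP (TTGCNNAA, 9.57%) and the IRF element (2.98%). Among the 6 members, the only further match was a C/EBP match in Cxcl13. For Cxcl13 and Ccl3 the bases just after the RefSeq start were not found in a GENCODE vM21 transcript of the gene. Their windows may therefore not lie directly upstream of the start given there. These letter matches are a description of the sequence and no binding was measured.

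Library totals ran from 7358559 to 23170244 counts, and 3 counts, taken as the lowest level told from 0, were worth 0.137 to 0.399 CPM (counts scaled to library size with TMM factors). WT ID8 3 was the deepest library and stood apart from its group: chi-square values divided by their degrees of freedom were 46.5 and 78.6 between it and WT ID8 1 and 2, against 5.04 to 21.6 for all other pairs within a group. It also had the fewest reads in olfactory and vomeronasal receptor genes, a measure of background, at 5.57 CPM against 39.5 to 862 CPM elsewhere. The results of the tests on the 10 genes that involve it are therefore given with and without it. Background also differed with challenge, at 314 to 862 CPM in WT naive and 5.57 to 246 CPM in WT ID8 libraries. In Tim4KO it was 264 to 470 CPM in naive and 39.5 to 353 CPM in ID8 libraries. Background and challenge are thus confounded in WT, which limits the fits below with background as a covariate. Timd4, the gene of Tim4, was at 882 to 1490 CPM in the 6 WT libraries and at 1.38 to 7.71 CPM in the 6 Tim4KO libraries, so each library matched its genotype label. The 7 markers of large peritoneal macrophages summed to 18300 to 22700 CPM in naive and 13900 to 17400 CPM in ID8 libraries. Alox15 was lower after challenge, at 9860 to 13100 CPM in naive and 4750 to 8160 CPM in ID8 libraries. Adgre1 (2570 to 3790 and 3930 to 6300 CPM) and Icam2 (617 to 911 and 941 to 1480 CPM) were higher. Markers of other cells summed to far less, and several of these also had different ranges in naive and ID8 libraries. The 7 markers of small peritoneal macrophages, monocytes and dendritic cells summed to 60 to 85.3 CPM in naive and 18 to 50.6 CPM in ID8 libraries, and the 4 mast cell markers to 12.2 to 34 and 1.5 to 9.07 CPM. The 8 mesothelial and stromal markers summed to 4.34 to 14.1 CPM in naive and 0.183 to 6 CPM in ID8 libraries, the 7 epithelial or tumour markers to 5.28 to 23.9 and 1.6 to 4.55 CPM, and the 5 B cell markers to 6.12 to 13.6 and 2.15 to 6.68 CPM. The 8 neutrophil markers summed to 1.27 to 4.96 CPM in naive and 2.15 to 13.5 CPM in ID8 libraries, with Ngp at 0 in WT ID8. T and NK markers stayed at 1.51 to 4.46 CPM and eosinophil markers at 0.344 to 1.8 CPM, with Prg2 at 0 in WT naive and in WT ID8 and Ear6 at 0 in both ID8 groups. Single markers of a list went different ways. Cd209a was at 24.4 to 39.5 CPM in naive and 3.27 to 6.66 CPM in ID8 libraries. Ly6c2 was at 0.349 to 1.23 and 0.691 to 3.74 CPM, and Ccr2 at 4.66 to 19.8 and 3.18 to 16.7 CPM. Among neutrophil markers, Retnlg was at 0 to 1.86 CPM in naive and 0.601 to 11.9 CPM in ID8 libraries. Elane was at 0.266 to 0.788 and 0 to 0.554 CPM. The part of these cells in the results below was not tested.

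Scaled by exon length, Cxcl13 and Ccl6 made up most of the summed level of the 10 genes. Pf4, a chemokine outside the 10, was higher than either in WT naive cells at 2910 ± 91.1 CPM per kb. In WT naive cells Cxcl13 averaged 1930 ± 752 CPM per kb of exon and Ccl6 1410 ± 44.8, followed by Ccl24 at 181 ± 57.2 (mean ± SD, n = 3). The other 7 genes lay between 1.04 CPM per kb (Ccl3) and 18.6 CPM per kb (Cxcl2) in that group, and together held 1.14% to 1.34% of the summed level. The order of the leading pair was opposite before and after challenge in Tim4KO cells: the ratio of Ccl6 to Cxcl13 per kb was 0.293 to 0.413 in Tim4KO naive and 1.74 to 1.95 in Tim4KO ID8 libraries. In WT it was 0.527 to 1.27 in naive cells, 1.02 and 1.18 in WT ID8 1 and 2, and 6.68 in WT ID8 3, where Ccl6 alone held 83.7% of the sum. The other 7 genes reached 2.97% and 5.77% of the sum in WT ID8 1 and 2, and 0.824% to 1.99% in the other 7 libraries outside WT naive.

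**Figure D1:**
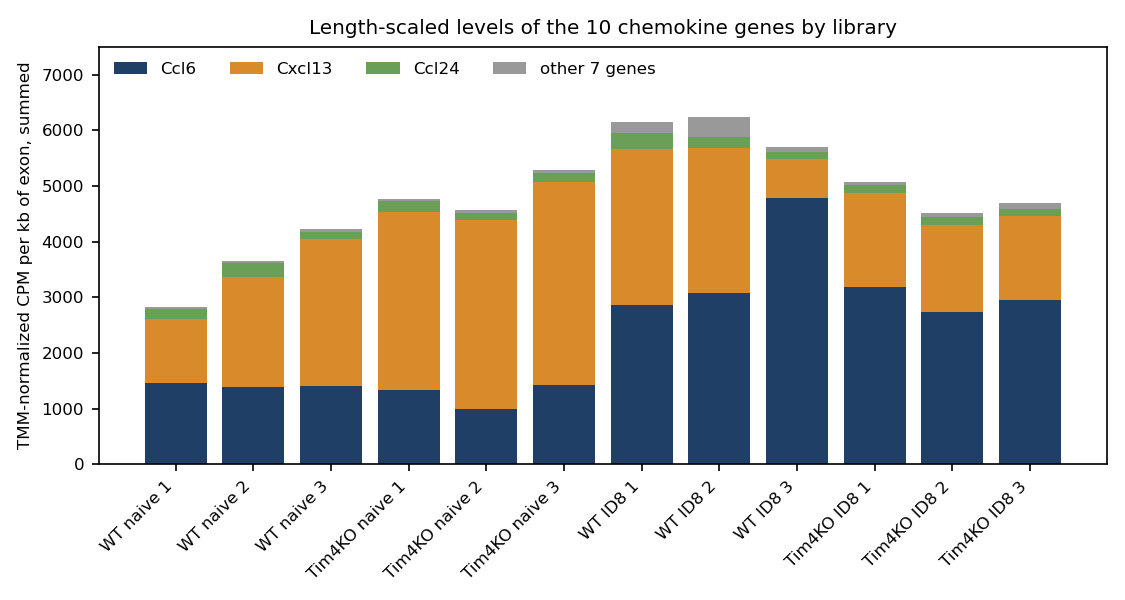
Summed length-scaled levels of the 10 chemokine genes in each of the 12 libraries, in TMM-normalized CPM per kb of exon; colours separate Ccl6, Cxcl13, Ccl24 and the other 7 genes. Ccl6 and Cxcl13 fill most of every bar, and Cxcl13 is smallest in WT ID8 3, where it holds 12.5% of the sum.

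The response to tumour challenge was examined first in WT cells. There 6 of the 10 chemokines rose (Cxcl2, Ccl2, Ccl7, Ccl3, Ccl4 and Ccl6), Cxcl12 fell, and Cxcl13, Cxcl1 and Ccl24 did not pass the test (edgeR quasi-likelihood test, Benjamini-Hochberg adjusted p under 0.05). Over all 15943 tested genes 19.5% were called higher and 12.3% lower in this comparison. In Tim4KO cells 2 of the 10 rose (Ccl4 and Ccl6), Cxcl12 fell, and the other 7 did not pass the test, where 11.5% of all genes were called higher and 5.06% lower. The median log2 change of the 10 members was 1.49 in WT and 0.80 in Tim4KO, against -0.04 and -0.05 over all tested genes. Naive and ID8 libraries did not overlap for 7 members in WT (44.4% of all tested genes) and for 5 in Tim4KO (41.9%). Without WT ID8 3 the same 7 chemokines were called in WT, with log2 changes of -3.21 for Cxcl12, 1.86 for Cxcl2, 4.64 for Ccl2, 5.83 for Ccl7, 1.70 for Ccl3, 3.27 for Ccl4 and 1.09 for Ccl6. The WT changes of Cxcl1 and Ccl24 were then 1.20 and 0.48, still not called. In Tim4KO, Cxcl13 joined the 3 called with all libraries. Over all genes, the fit without WT ID8 3 called 5108 of 17374 in WT and 3595 in Tim4KO. Upper-quartile scaling moved the median of all genes to -0.28 in WT and -0.17 in Tim4KO, and changed no call among the 10. The split of higher and lower calls over all genes was 3105 and 1962 in WT and 1836 and 806 in Tim4KO, and with that scaling it was 1799 and 3508 in WT and 1322 and 1394 in Tim4KO.

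**Figure D2:**
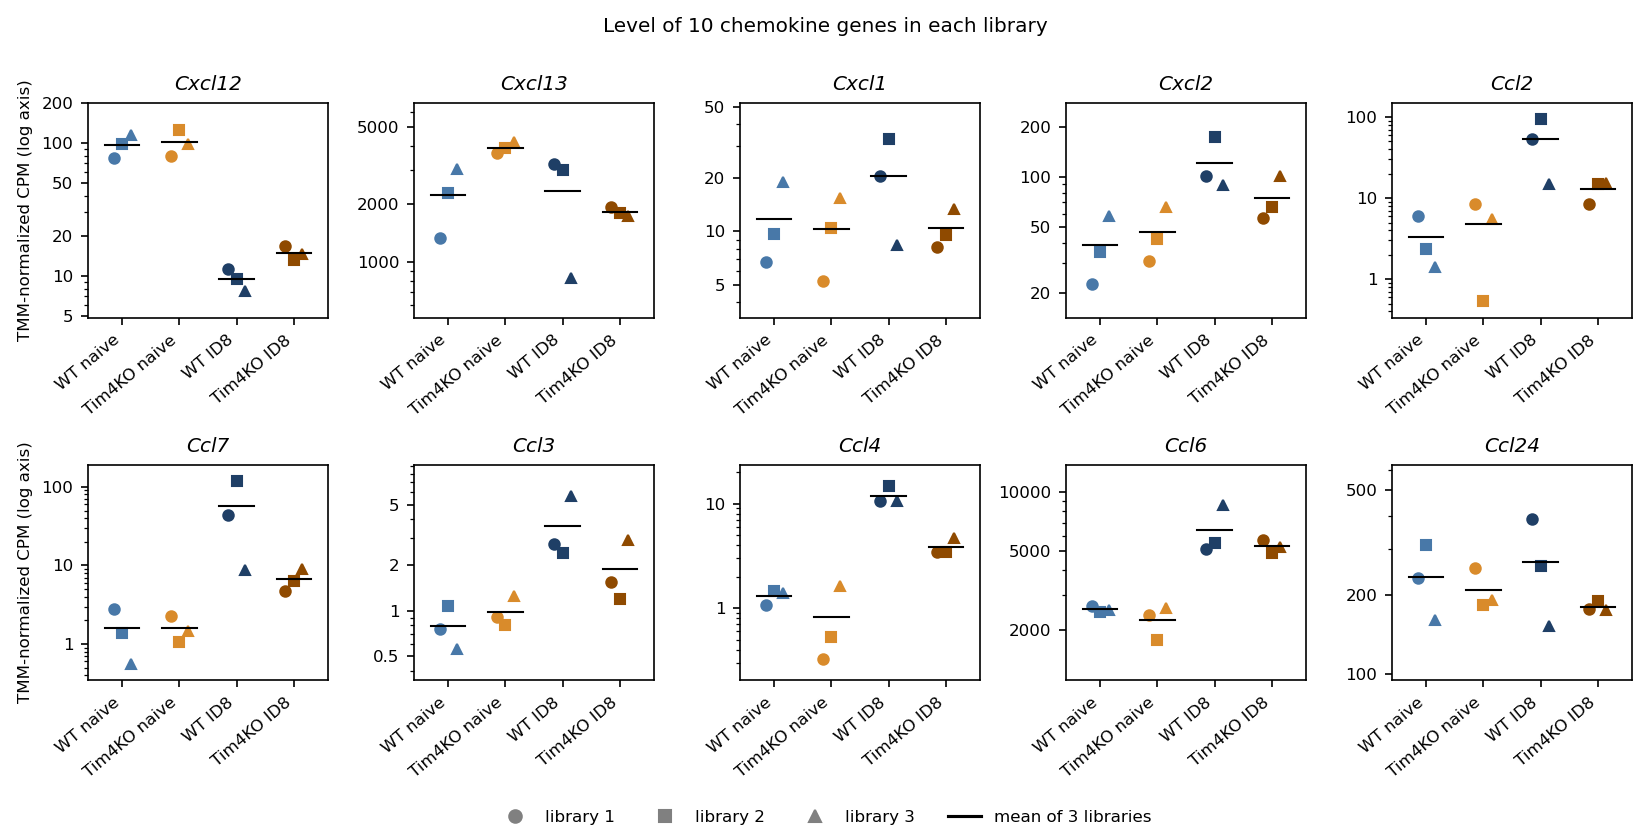
TMM-normalized CPM (log axis) of each chemokine gene in the 12 libraries; marker shapes give the library number within its group and bars the mean of 3. Cxcl12 separates naive from ID8 libraries in both genotypes (76.5 to 125 against 7.71 to 16.6 CPM), and the triangle of WT ID8 lies far below its group for Cxcl13, Ccl2 and Ccl7.

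Cxcl12 (ENSMUSG00000061353, chromosome 6), the CXCR4 ligand, had the smallest p-value of the 10 in both genotypes. Its levels across naive libraries were 76.5, 97.6 and 114 CPM for WT and 79.1, 125 and 97.9 CPM for Tim4KO. Across ID8 libraries they were 11.2, 9.45 and 7.71 CPM for WT and 16.6, 13.2 and 14.5 CPM for Tim4KO. Every ID8 library lay below every naive library. The log2 change was -3.37 in WT (SE 0.21, edgeR adjusted p = 2.11e-07) and -2.76 in Tim4KO (SE 0.20, edgeR adjusted p = 1.3e-06), a 10.3-fold and a 6.8-fold drop. By p it ranked 5 in WT and 7 in Tim4KO among all tested genes. The ranges of the mesothelial and stromal markers in naive and ID8 libraries are given above, and their part in this change was not tested. In bulk libraries, fewer cells that express a gene and less RNA per cell cannot be told apart.

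Cxcl13 (ENSMUSG00000023078, chromosome 5), the CXCR5 ligand, was uneven between WT libraries. Across naive libraries it stood at 1330, 2290 and 3050 CPM for WT and at 3700, 3890 and 4190 CPM for Tim4KO. Across ID8 libraries it stood at 3220, 3000 and 822 CPM for WT and at 1940, 1800 and 1740 CPM for Tim4KO. The Tim4KO ID8 libraries lay below all Tim4KO naive ones, while WT ID8 spanned the whole range of WT naive, and WT ID8 3 was the lowest of all 12. Challenge gave a log2 change of -1.10 in Tim4KO (SE 0.45, edgeR adjusted p = 0.128) and 0.08 in WT (SE 0.44, edgeR adjusted p = 0.901). The Tim4KO change was called without WT ID8 3 (-1.08, edgeR adjusted p = 0.00175), whose spread enters the shared dispersion, by DESeq2 (adjusted p = 0.02) and in a fit to only the groups compared (edgeR adjusted p = 6.19e-05). The WT change turned to -0.15 under upper-quartile scaling and was 0.50 without WT ID8 3 (edgeR adjusted p = 0.122).

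Of the neutrophil-recruiting pair, Cxcl2 passed the test in WT and Cxcl1 in neither genotype. For Cxcl2 (ENSMUSG00000058427, chromosome 5), WT libraries held 22.5, 35.1 and 58 CPM when naive and 101, 175 and 89.8 CPM after challenge, with no overlap. Tim4KO libraries held 30.8, 42.3 and 66.1 CPM when naive and 56.5, 65.9 and 101 CPM after challenge, which overlapped. Its log2 change was 1.65 in WT (SE 0.42, edgeR adjusted p = 0.016) and 0.68 in Tim4KO (SE 0.42, edgeR adjusted p = 0.318). The WT call was lost without WT naive 2 (edgeR adjusted p = 0.0551), without WT ID8 2 (0.053), without the filter on low counts (0.0523) and with the background covariate (0.0506). For Cxcl1 (ENSMUSG00000029380, chromosome 5), WT libraries held 6.72, 9.62 and 18.8 CPM when naive and 20.4, 32.8 and 8.35 CPM after challenge. Tim4KO libraries held 5.25, 10.5 and 15.3 CPM of Cxcl1 when naive and 8.22, 9.6 and 13.4 CPM after challenge. All 4 groups overlapped, and WT ID8 3 was again the lowest of its group. The Cxcl1 change on the log2 scale was 0.79 in WT (SE 0.55, edgeR adjusted p = 0.284) and 0.01 in Tim4KO (SE 0.56, edgeR adjusted p = 0.996), where the sign turned under DESeq2 size factors (-0.04) and upper-quartile scaling (-0.12). Of the 50-base words in Cxcl2 transcripts, 5.84% also occur in Cxcl3, so some Cxcl2 reads could be shared; none of the words of the other 9 members occur in another gene of GENCODE vM21.

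The CCR2 ligands Ccl2 and Ccl7 had the largest fold increases of the 10 in WT cells and the largest SE. For Ccl7 (ENSMUSG00000035373, chromosome 11), WT libraries held 2.82, 1.4 and 0.559 CPM when naive and 43.6, 119 and 8.72 CPM after challenge. Tim4KO libraries held 2.3, 1.07 and 1.46 CPM when naive and 4.77, 6.37 and 9.05 CPM after challenge. The naive levels of Ccl7 rested on 8 to 26 counts a library in WT and 8 to 28 in Tim4KO. The groups did not overlap in either genotype, and WT ID8 3 fell within the range of Tim4KO ID8. Ccl7 changed by 5.24 on the log2 scale in WT (SE 1.0, edgeR adjusted p = 0.00492), and the Tim4KO value was 2.04 (SE 0.97, edgeR adjusted p = 0.2). The WT value was 4.12 without WT ID8 2, 5.83 without WT ID8 3, 5.85 without WT naive 1 and 6.62 with the background covariate, and it was called in all of these. The Tim4KO change was called in a fit to only the groups compared (edgeR adjusted p = 0.00164).

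For Ccl2 (ENSMUSG00000035385, chromosome 11), WT libraries held 6.07, 2.34 and 1.4 CPM when naive and 54, 93.8 and 15 CPM after challenge. Tim4KO libraries held 8.45, 0.533 and 5.46 CPM when naive and 8.38, 14.9 and 15.2 CPM after challenge. WT groups were apart, Tim4KO groups overlapped by a small margin, and WT ID8 3 fell within the Tim4KO ID8 range. The Ccl2 change was, on the log2 scale, 4.12 in WT (SE 0.95, edgeR adjusted p = 0.0119) and 1.34 in Tim4KO (SE 0.87, edgeR adjusted p = 0.351). The lowest of these levels, in Tim4KO naive 2, rested on 4 counts. The WT value was 3.48 without WT ID8 2, 4.85 without WT naive 1 and 5.40 with the background covariate, and the call was lost without WT naive 3 (3.77, edgeR adjusted p = 0.0523).

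The macrophage inflammatory protein genes Ccl3 and Ccl4 rested on few counts in naive cells. For Ccl4 (ENSMUSG00000018930, chromosome 11), WT libraries held 1.08, 1.47 and 1.4 CPM when naive and 10.7, 14.7 and 10.5 CPM after challenge. Tim4KO libraries held 0.328, 0.533 and 1.63 CPM when naive and 3.46, 3.41 and 4.67 CPM after challenge. Naive and ID8 libraries were apart in both genotypes, and so were WT ID8 and Tim4KO ID8. The Ccl4 change was, on the log2 scale, 3.16 in WT (SE 0.39, edgeR adjusted p = 5.38e-05) and 2.08 in Tim4KO (SE 0.41, edgeR adjusted p = 0.00318), with 3.21 in Tim4KO without Tim4KO naive 3. The Tim4KO naive libraries held 4, 4 and 29 counts of Ccl4.

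For Ccl3 (ENSMUSG00000000982, chromosome 11), WT libraries held 0.758, 1.07 and 0.559 CPM when naive and 2.76, 2.41 and 5.7 CPM after challenge. Tim4KO libraries held 0.902, 0.799 and 1.24 CPM when naive and 1.54, 1.2 and 2.94 CPM after challenge. Unlike Ccl2, Ccl7 and Cxcl13, it was highest within its group in WT ID8 3. The Ccl3 change was, on the log2 scale, 2.19 in WT (SE 0.47, edgeR adjusted p = 0.00319) and 0.93 in Tim4KO (SE 0.47, edgeR adjusted p = 0.2). WT naive and WT ID8 did not overlap, and the Tim4KO groups did.

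Ccl6 (ENSMUSG00000018927, chromosome 11), a CCR1 ligand, was abundant at rest and rose 2.53-fold in WT and 2.36-fold in Tim4KO cells. WT libraries held 2630, 2470 and 2510 CPM when naive and 5130, 5520 and 8580 CPM after challenge, with WT ID8 3 the highest of all 12. Tim4KO libraries held 2380, 1780 and 2570 CPM when naive and 5730, 4890 and 5290 CPM after challenge. Every ID8 library lay above every naive one. On the log2 scale the change was 1.34 in WT (SE 0.19, edgeR adjusted p = 0.000148) and 1.24 in Tim4KO (SE 0.19, edgeR adjusted p = 0.00054), and the difference of the changes was -0.10 (SE 0.26, edgeR adjusted p = 0.932). Ccl24 (ENSMUSG00000004814, chromosome 5), the eosinophil attractant, overlapped in all 4 groups. Its mean was 234 ± 74.1 CPM for WT and 209 ± 39 CPM for Tim4KO when naive, and 267 ± 120 CPM for WT and 181 ± 7.47 CPM for Tim4KO after challenge (SD, n = 3). WT ID8 held both its highest and its lowest library, library 1 at 391 CPM and library 3 at 152 CPM. Its log2 change was 0.19 in WT (SE 0.30, edgeR adjusted p = 0.651; -0.04 under upper-quartile scaling) and -0.21 in Tim4KO (SE 0.30, edgeR adjusted p = 0.685).

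**Figure D3:**
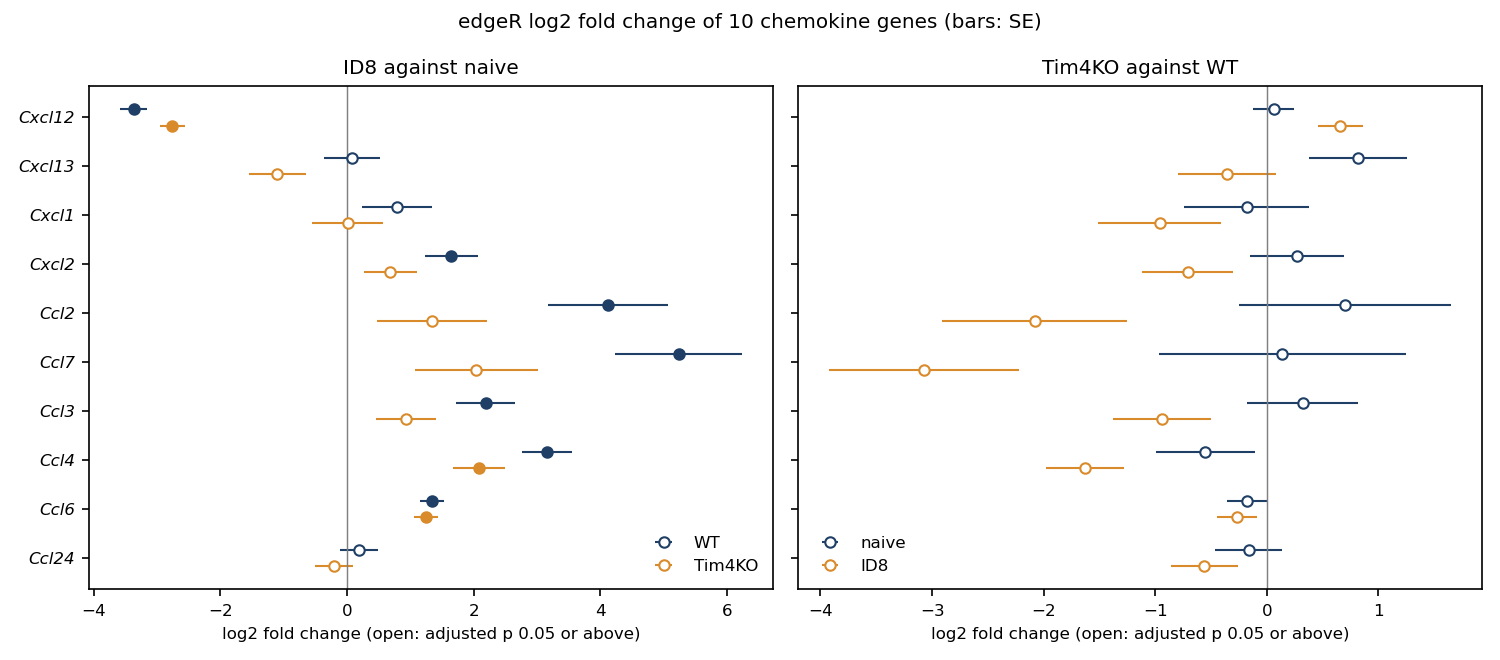
edgeR log2 fold changes of the 10 genes for ID8 against naive (left, by genotype) and Tim4KO against WT (right, by condition); bars are SE and filled points have an adjusted p under 0.05. All filled points are in the left panel, 7 for WT and 3 for Tim4KO.

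What Tim4 loss did to the chemokines was addressed by comparing genotypes within each condition. In naive cells none of the 10 members was called by edgeR, DESeq2 or limma voom, where edgeR called 0.0439% of all tested genes, and 0 of 10 had an unadjusted p under 0.05 (6.27% of all genes). Cxcl13 was the 1 member whose groups did not overlap (14.2% of all genes), higher in Tim4KO with a log2 difference of 0.82 (SE 0.44, edgeR adjusted p = 0.811). Cxcl12 differed by 0.06 (SE 0.18, edgeR adjusted p = 0.977) and Ccl6 by -0.18 (SE 0.18, edgeR adjusted p = 0.928).

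In challenged cells none of the 10 members was called by edgeR, where 0.0565% of all tested genes were, and 5 of 10 had an unadjusted p under 0.05 (12.1% of all genes). These were Ccl4 (log2 difference -1.63), Ccl7 (-3.07), Ccl2 (-2.08), Ccl3 (-0.94) and Cxcl12 (0.66), with edgeR adjusted p of 0.108, 0.257, 0.379, 0.409 and 0.251. Of the 10 differences 9 were below 0 and only that of Cxcl12 was above, against 48.5% below 0 over all tested genes. The WT ID8 and Tim4KO ID8 libraries did not overlap for Ccl4 and Cxcl12 (15.6% of all genes). The median difference of the members was -0.82, against 0.01 over all genes. Without WT ID8 2 the difference of Ccl7 was -1.93 and that of Ccl2 -1.42. This comparison shares the WT ID8 libraries with the WT challenge comparison.

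The genotype result after challenge depended on the test and on WT ID8 3. Ccl4 was called in limma voom (adjusted p = 0.0292), in DESeq2 (adjusted p = 0.00171), without the filter on low counts (edgeR adjusted p = 9.34e-05) and with background as a covariate (edgeR adjusted p = 0.0262), and Ccl7 by DESeq2 (adjusted p = 0.0182). Without WT ID8 3, edgeR called 3 members, all lower in Tim4KO ID8: Ccl4 (-1.72, adjusted p = 0.00267), Ccl7 (-3.60, adjusted p = 0.0102) and Ccl24 (-0.83, adjusted p = 0.0318). Over all genes, that fit called 997 of 17374, against 9 of 15943 with all libraries. The other differences without WT ID8 3, none of them called, were -2.55 for Ccl2, -0.42 for Ccl3, -0.76 for Cxcl13, -1.36 for Cxcl1, -0.90 for Cxcl2, -0.00 for Ccl6 and 0.53 for Cxcl12. Ccl4 was also called without Tim4KO naive 1 (edgeR adjusted p = 0.0454) and without Tim4KO naive 3 (0.0137). On the log2 scale, the level in WT ID8 3 was closer to the average of Tim4KO ID8 than to that of WT ID8 1 and 2 for 6 of the 10 members (Cxcl13, Cxcl1, Cxcl2, Ccl2, Ccl7 and Ccl24), and closer to the other WT ID8 libraries for Cxcl12, Ccl3 and Ccl4. For Ccl6 both averages were nearly equal (5310 and 5320 CPM) and WT ID8 3 lay above them at 8580 CPM. For Ccl7, the average of WT ID8 1 and 2 was 81.5 CPM, the value of WT ID8 3 was 8.72 CPM and the average of Tim4KO ID8 was 6.73 CPM. For Ccl4 the same values were 12.7, 10.5 and 3.85 CPM. That library was singled out after its values were seen.

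**Figure D4:**
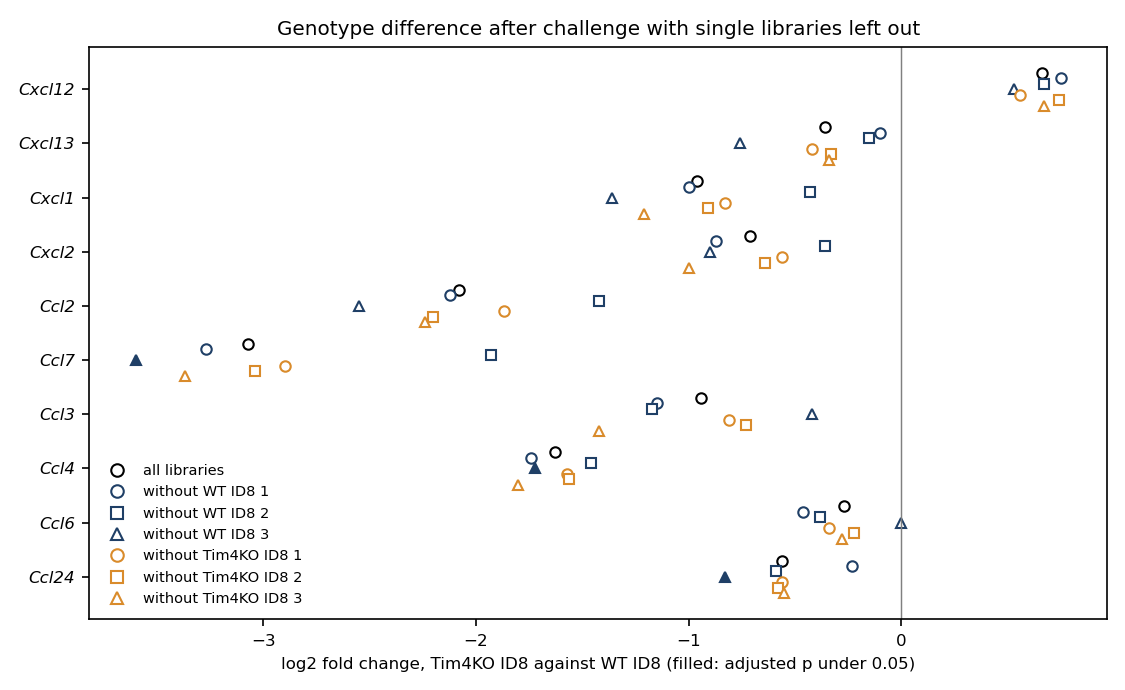
edgeR log2 fold change of Tim4KO ID8 against WT ID8 for each gene with all 12 libraries and with each of the 6 ID8 libraries left out in turn; filled symbols have an adjusted p under 0.05. The filled symbols are those of Ccl7, Ccl4 and Ccl24 without WT ID8 3, and Ccl7 moves from -3.07 to -1.93 without WT ID8 2.

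Whether the challenge response of the chemokines differed between genotypes was tested by the interaction. No member was called by edgeR, DESeq2 or limma voom, edgeR called 0% of all tested genes, and 2 of 10 members had an unadjusted p under 0.05 (7.44% of all genes). These were Ccl7 (-3.21, SE 1.38, edgeR adjusted p = 0.668) and Cxcl12 (0.60, SE 0.27, edgeR adjusted p = 0.668), where a negative value is a smaller increase, or a larger decrease, in Tim4KO. Of the 10 interaction values 9 were below 0, with a median of -1.03, against 49.1% below 0 and a median of 0.01 over all genes. The Ccl7 value was -2.07 without WT ID8 2, -3.81 without WT naive 1 and -3.78 without WT ID8 3, and the Cxcl12 value was 0.46 without WT ID8 3. The interaction values of Ccl2, Ccl3 and Ccl4 without WT ID8 3 were -3.32, -0.75 and -1.20. Those of Cxcl1, Cxcl2, Ccl6 and Ccl24 were -1.18, -1.17, 0.17 and -0.68, and none of these was called. The 4 chemokines called in WT and not in Tim4KO, Cxcl2, Ccl2, Ccl7 and Ccl3, are thus not shown to respond differently. Without WT ID8 3 the interaction of Cxcl13 was called (-1.59, edgeR adjusted p = 0.0163; -1.18 and 0.684 with all libraries), which set a WT change of 0.50 against a Tim4KO change of -1.08. Over all genes, the interaction was then called for 368 of 17374.

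Of a list of 28 further chemokine genes, all were in the table and 12 passed the filter on low counts. In WT cells challenge raised 7 of the 12 (Cxcl3, Cxcl10, Pf4, Ccl5, Ccl8, Ccl9 and Ccl12) and lowered none by edgeR, where 19.5% of all tested genes were called higher. DESeq2 called the same 7, and limma voom called 5, without Cxcl3 and Ccl12. Of all 15943 tested genes DESeq2 called 2962 higher and limma voom 3080. WT naive libraries held few counts of 4 of these genes: 0 to 1 for Ccl8, 4 for Cxcl10, 4 to 9 for Ccl12 and 8 to 9 for Cxcl3. These 4 passed the filter (minimum count 10) only through their higher ID8 libraries, so the filter favoured a rise. The count of 7 and the median change in WT depend in part on this. In Tim4KO edgeR and limma voom called 3 (Pf4, Ccl5 and Ccl9), all higher, where edgeR called 11.5% of all genes higher, and DESeq2 also called Cxcl3. Over all genes DESeq2 called 1861 higher in Tim4KO and limma voom 1803. The median log2 change of the 12 was 0.86 in WT and 0.47 in Tim4KO, against -0.04 and -0.05 over all genes. Ccl5, which attracts T cells and monocytes, rose from 2.67 ± 0.637 to 30.6 ± 17.8 CPM in WT (log2 change 3.51, SE 0.54, edgeR adjusted p = 0.000928) and from 2.98 ± 1.61 to 27 ± 4.92 CPM in Tim4KO (3.13, SE 0.53, edgeR adjusted p = 0.00319). Ccl9, a relative of Ccl6 that also binds CCR1, rose from 587 ± 20.4 to 970 ± 40.7 CPM in WT (0.73, edgeR adjusted p = 0.000668) and from 572 ± 80.9 to 799 ± 62.9 CPM in Tim4KO (0.48, edgeR adjusted p = 0.0154), a call lost without Tim4KO naive 2 or 3 or Tim4KO ID8 1 or 3 (edgeR adjusted p of 0.0704 to 0.108). Pf4, platelet factor 4, rose in Tim4KO from 1860 ± 290 to 2570 ± 15 CPM (0.47, edgeR adjusted p = 0.0324), a call lost with DESeq2 size factors (0.051), with upper-quartile scaling (0.0904) and without Tim4KO naive 2 or 3 or any 1 of the Tim4KO ID8 libraries (0.0726 to 0.187). Cxcl10, a CXCR3 ligand, rose in WT from 0.327 ± 0.0926 to 4.01 ± 2.75 CPM (3.61, SE 0.78, edgeR adjusted p = 0.0033; mean ± SD, n = 3 throughout). That value was 2.96 without WT ID8 2 and 4.76 with the background covariate, and its limma voom adjusted p was 0.0488. The WT value of Ccl5 was 2.72 with the background covariate. Between genotypes after challenge 0 of the 12 were called by edgeR, DESeq2 or limma voom, 4 had an unadjusted p under 0.05 in edgeR (12.1% of all genes), and all 12 differences were below 0 (48.5% of all genes), with a median of -0.31 against 0.01 over all genes. Ccl12 passed the filter through WT ID8 (0.958 to 3.78 CPM, against 0.115 to 0.538 CPM in Tim4KO ID8), which favoured a difference below 0. Cxcl10 was also highest in WT ID8, at 1.51 to 6.96 CPM against 0.231 to 1.66 CPM in Tim4KO ID8. The shared sign is therefore not independent of the filter.

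Of 23 chemokine receptor genes 12 passed the filter, and Ackr3 was the 1 receptor called by edgeR in the challenge comparisons. Ackr3 is an atypical receptor that takes up CXCL12 without classical signalling. It rose from 58.1 ± 17.6 to 116 ± 48.5 CPM in WT (log2 change 1.0, SE 0.32, edgeR adjusted p = 0.0363), where the groups overlapped, and from 24.5 ± 5.95 to 52 ± 4.78 CPM in Tim4KO (1.09, SE 0.33, edgeR adjusted p = 0.0451), where they did not (mean ± SD, n = 3). The WT call was lost with 1 library removed in 5 of 12 cases (edgeR adjusted p up to 0.108: without WT naive 1 or 3, Tim4KO naive 2, or WT ID8 1 or 2), and the Tim4KO call in 8 (up to 0.129: without WT naive 1, WT ID8 2, or any 1 of the Tim4KO libraries). Upper-quartile scaling lost both (0.089 and 0.0719), and the fit to only the groups compared lost the WT call (0.116). Within each condition every Tim4KO library was below every WT library, with a log2 difference of -1.25 in naive (SE 0.33, edgeR adjusted p = 0.562) and -1.16 in ID8 cells (SE 0.32, edgeR adjusted p = 0.245). These did not pass the test in edgeR or limma voom, but were called by DESeq2 (adjusted p = 0.00915 and 0.00798), without the filter on low counts (edgeR adjusted p = 1.56e-08 and 3.51e-08) and without WT ID8 3 (edgeR adjusted p = 0.0271 and 0.00084). Over all genes, DESeq2 called 52 in naive and 265 in ID8 cells, of 15943. Without the filter 59 and 264 of 50770 were called, and without WT ID8 3 it was 29 and 997 of 17374. Ccr1, the receptor of CCL6, averaged 653 ± 32.6 CPM in WT naive cells. It was called by edgeR in 0 of the 5 comparisons, with an unadjusted p under 0.05 in 1, while DESeq2 called it and Ccr9 lower after challenge in Tim4KO (Ccr1 log2 change -0.48, adjusted p = 0.014). Ccr9 was also called lower in WT by limma voom, at levels of at most 2.38 CPM in every library. Of all 15943 genes DESeq2 called 1300 lower in Tim4KO and limma voom 2719 lower in WT. Ccr1 and Ccr9 are named here with their values already known.

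The genes whose log2 CPM followed each member most closely over the 12 libraries were then listed, among tested genes whose mean count reached 50. These Pearson correlations describe libraries that share groups and depth, and carry no test. Cxcl12 was closest to St8sia6 (r = 0.989), Csf3r (0.989) and Tmem176a (0.987), and Cxcl13 to Msl2 (0.942), Ccnt1 (0.938) and Krit1 (0.931). Cxcl1 was closest to Dubr (0.898), Nfkb2 (0.887) and Ets2 (0.878), and Cxcl2 to Tada2a (0.952), Ier3 (0.925) and Nr1h3 (0.923). Ccl2 was closest to Mmachc (0.977), Nif3l1 (0.969) and Srp19 (0.965), and Ccl7 to Il1rn (0.978), Nol12 (0.978) and Morf4l2 (0.977). Ccl3 was closest to Cnnm4 (0.921), Sept9 (0.916) and Gm12033 (0.915), and Ccl4 to Spp1 (0.966), Cbwd1 (0.965) and Sept11 (0.959). Ccl6 was closest to Smpdl3b (0.985), Plp2 (0.983) and Nit1 (0.982), and Ccl24 to Ovca2 (0.918), Pfdn4 (0.851) and Mtpap (0.815). Among the members themselves, Ccl2 with Ccl7 had the highest correlation (0.934) and Cxcl12 with Ccl6 the lowest (-0.965).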

How the data were processed

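Per the labels' protocols, sorted cells gave RNA through the RNeasy micro kit and PCR-amplified libraries through the SMART-Seq mRNA LP kit. The authors deposited raw counts by Ensembl identifier for the 12 libraries. FastQC, STAR 2.5, mm10 and GRCm39 are listed, without a role, per the submitters' processing notes. The counting program, its annotation and how it treated strand and multi-mapped reads are not given in the sources used here. Symbols came from GENCODE vM21 (52029 of 57010 identifiers), as did exon lengths. No exon of the 10 genes overlapped another gene there.

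Tests used edgeR 4.0.16 (R 4.3.3): filterByExpr (minimum count 10), TMM scaling and 1 robust quasi-likelihood fit of group means to all 12 libraries (8 residual degrees of freedom). Tests were two-sided, with Benjamini-Hochberg adjustment over all 15943 tested genes and calls at an adjusted p under 0.05. SE was taken as the absolute log2 change over the root of F. Levels are CPM with TMM factors. The model was tested on simulated data. No molecular identifiers were used, so floors cover counting error only. Alternatives were DESeq2 1.42.0, limma 3.58.1 voom, other scalings, no filter, a background covariate (1713 olfactory and vomeronasal receptor genes), a fit to the compared groups, a replicate block and leaving out each library.

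The 10 members are named in every library. Of the lists of other chemokines and receptors, up to 3 called genes with the smallest p per comparison and direction are given with values, and for each member the 3 genes most like it. Members, lists and tests were chosen with earlier results of these data known.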

Additional observations from a re-analysis of the deposited data

How the results depend on the processing

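The number of the 10 chemokines called with WT challenge stayed within 1.5 times of the reported 7 in all 20 other settings. Over all genes the main fit called 5067 of 15943 in this comparison. The other settings called from 3102 of 14241 (only the groups compared) to 7230 of 17390 (without WT ID8 1), and 5650 of 50770 without the filter. In Tim4KO the number was 5 instead of 3 in the fit to only the groups compared, which called 3827 of 14124 genes against 2642 of 15943. Between genotypes after challenge the number of chemokines was 0 with all libraries in edgeR, 1 without the filter on low counts, 2 with DESeq2, 1 with limma voom and 1 with the background covariate, and 0 to 3 when single libraries were left out. Over all genes edgeR called 9 of 15943 with all libraries, and 264 of 50770 without the filter. DESeq2 called 265 of 15943, limma voom 11 and the fit with the background covariate 179. With single libraries left out, 1 to 997 genes were called. For the interaction, 0 to 1 chemokines and 0 to 368 of all genes were called when single libraries were left out. Sign changes occurred only for differences that were not called. Cxcl13 with WT challenge was -0.15 under upper-quartile scaling, -0.06 with limma voom, -0.03 in the fit to only the groups compared and -0.18 to 0.50 with single libraries left out. Cxcl1 with Tim4KO challenge was -0.04 with DESeq2 size factors and with DESeq2, -0.12 with upper-quartile scaling, -0.03 in the fit to only the groups compared and -0.30 to 0.43 with single libraries left out. Ccl24 with WT challenge was -0.04 with upper-quartile scaling and -0.13 to 0.48 with single libraries left out. The interaction of Ccl6 was 0.03 with upper-quartile scaling, 0.16 with the background covariate and -0.29 to 0.17 with single libraries left out, and that of Ccl4 was -1.48 to 0.02. In naive cells the genotype difference with single libraries left out was -0.11 to 0.21 for Cxcl12, -0.60 to 0.34 for Cxcl1, -0.08 to 0.69 for Cxcl2, -0.30 to 0.73 for Ccl7 and -0.37 to 0.10 for Ccl24. The causes of these shifts were not tested. Libraries with the same number did not deviate together (r of -0.498 to 0.423 over 18 pairs, 5 of them over 0.1, and 2 of 12 libraries nearest to their own number). With the replicate number as a block, the number of chemokines called was 7 in WT, 3 in Tim4KO, 0 between genotypes in each condition and 0 for the interaction. Of all 15943 genes the block fit called 4619 in WT and 2562 in Tim4KO. Between genotypes it called 3 in naive and 14 in ID8 cells, and for the interaction 0. Ccl3, Ccl4 and Ccl7 in naive cells rest on 4 to 29 counts a library, which limits their precision. Ccl2 rests there on 4 to 103 counts a library.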

Other observations

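Cxcl1 and Cxcl2 were each highest in the library numbered 3 in WT naive, Tim4KO naive and Tim4KO ID8, and not in WT ID8, where the library numbered 2 was highest. Of all tested genes 3.19% were highest in the library numbered 3 in those 3 groups, and no other member was. The pattern was noticed after the values were seen and was not tested.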
